A study of Oryza sativa with 16 samples.

Results

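Circadian clock genes of rice (Oryza sativa) were followed in panicles of a drought-tolerant introgression line, DTY-IL, and of its recipient parent Swarna, with and without reproductive-stage drought stress (RDS). The set held 10 of the 55801 genes of the count table, chosen by locus identifier for their known place in the plant clock. The rule uses no measured value, though it was written with earlier results of these data known. They were LHY (LOC_Os08g06110), the pseudo-response regulators PRR73 (LOC_Os03g17570), PRR95 (LOC_Os09g36220), PRR59 (LOC_Os11g05930) and TOC1, also called PRR1 (LOC_Os02g40510), GI (LOC_Os01g08700), FKF1 (LOC_Os11g34460), LUX (LOC_Os01g74020), and a pair of ELF3 genes, here ELF3-1 (LOC_Os06g05060) and ELF3-2 (LOC_Os01g38530). All 10 passed the filter on low counts and were among the 33698 genes tested. By their locus identifiers they lie on chromosome 8 (LHY), 3 (PRR73), 9 (PRR95), 11 (PRR59 and FKF1), 2 (TOC1), 1 (GI, LUX and ELF3-2) and 6 (ELF3-1).

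The plant clock is a circuit of repressors that take turns over the day. LHY, a MYB transcription factor, peaks around dawn and holds down genes of the evening, while the pseudo-response regulators follow each other from morning to evening and repress LHY in turn. LUX and ELF3 belong to the evening complex, a repressor of the early night, and GI and FKF1 tie the clock to light and to flowering time. Most of these roles were worked out in Arabidopsis, and the rice genes carry the names of their Arabidopsis counterparts.

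The groups were DTY-IL under drought (4 libraries), DTY-IL under control (4), Swarna under drought (4) and Swarna under control (3 used of 4). DTY-IL is a single F7 line that holds segments of the donor N22 in a Swarna background, and Swarna is a widely grown indica variety that is sensitive to drought. Plants stood in greenhouse pots, and RDS meant soil at 75% of field capacity for 9 days and then at 50% for 3 days, while control plants were kept well watered. Whole panicles of both treatments were taken on day 12 at the R3 stage, so each library is a mixture of panicle tissues. Fewer cells of a type and less RNA per cell cannot be told apart in such data. The clock hour of harvest is not given in the sources used here. A difference in hour between groups can therefore not be told apart from one of treatment or genotype, and its part was not tested.

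Library totals ran between 24677520 and 31080042 counts over the 15 libraries used. All 13 listed floral organ genes passed the filter and none was at 0 in any of these libraries. The library labelled Swarna control replicate 3, which the study names as an outlier, was left out. It stood apart in tissue markers as well. Scaled to its total alone, its 13 floral organ genes summed to 468 CPM (counts at a library total scaled to 1000000), with 7 of them at 3 counts or fewer, against 1188 to 2427 in the other libraries. Its 9 green tissue genes summed to 74452 CPM, against 1331 to 34763 in the others. Levels below are CPM scaled by TMM factors, and they are compared within a gene and not between genes, since they are not corrected for gene length.

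Drought panicles and control panicles differed in most of the clock. In DTY-IL, 8 of the 10 genes passed an adjusted p of 0.05 between drought and control, 7 of them higher and 1 lower, and in Swarna the counts were also 8, 7 and 1. LHY was the gene that fell in both genotypes, and PRR95, PRR59, TOC1, GI, FKF1, LUX and ELF3-2 rose in both. PRR73 and ELF3-1 passed in neither. Over all genes tested, 33% passed in DTY-IL, with 16% higher and 17% lower, and 44.3% passed in Swarna, with 21.6% higher and 22.7% lower. With the added condition of an absolute log2 fold change no smaller than 1, 6 clock genes passed in DTY-IL, against 19.8% of all genes, and 7 in Swarna, against 29.5% of all genes. The median log2 fold change of the 10 genes was 1.17 in DTY-IL, against -0.03 over all genes, and 1.85 in Swarna, against 0.00 over all genes. Drought and control libraries did not overlap for 8 clock genes in DTY-IL (29.3% of all genes) and for 9 in Swarna (52.2% of all genes). With the outlying Swarna library put back, 5 clock genes passed in DTY-IL (11.9% of all genes) and 6 in Swarna (27.3% of all genes).

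**Figure D1:**
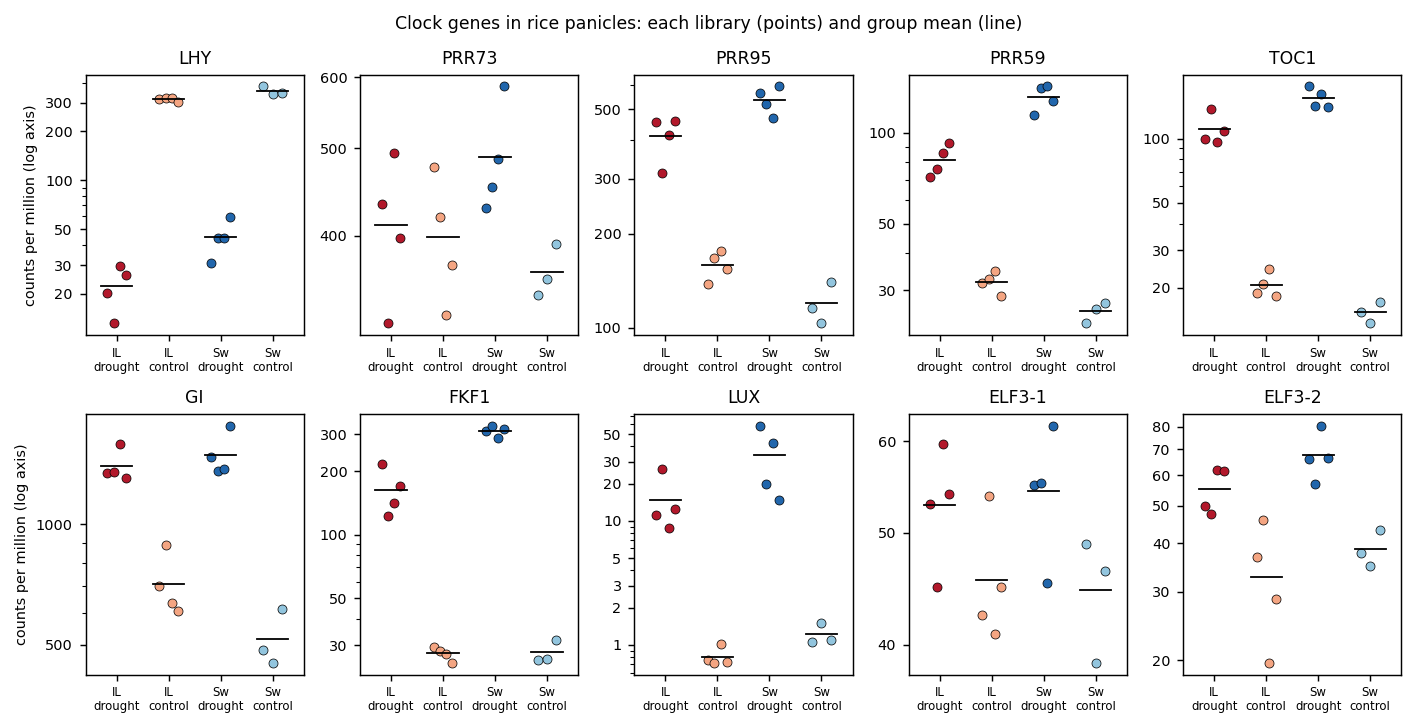
Level of each clock gene in each library (points, CPM on a log axis that differs between panels) with the group mean (line), for DTY-IL (IL) drought, DTY-IL control, Swarna (Sw) drought and Swarna control. LHY lies far lower under drought, at 13.2 to 59.7 against 306 to 379 CPM under control, while TOC1, FKF1 and LUX lie far higher, and PRR73 and ELF3-1 overlap between drought and control in DTY-IL.

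LHY, the morning repressor, had 20.4, 13.2, 29.6 and 26.2 CPM in DTY-IL drought panicles, against 317, 322, 319 and 306 CPM in DTY-IL control panicles. In Swarna it had 30.9, 44.0, 44.1 and 59.7 CPM under drought, against 379, 339 and 344 CPM under control. Every drought library was far below every control library. LHY fell 14.1-fold in DTY-IL (log2 fold change -3.82 ± 0.25 SE, adjusted p = 1.11e-06) and 7.92-fold in Swarna (-2.99 ± 0.25 SE, adjusted p = 2.28e-06), by edgeR's quasi-likelihood test, with p-values adjusted after Benjamini and Hochberg over all genes. The control libraries of DTY-IL were nearly identical, with a coefficient of variation of 2.28%, whereas it was 32.3% among the drought libraries of DTY-IL and 26.4% among those of Swarna. Ranked by p-value over the 33698 genes, LHY was the 10th in DTY-IL and the 122nd in Swarna.

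TOC1, the evening member of the pseudo-response regulators and in Arabidopsis a repressor of LHY, went the other way. It had 99.8, 138, 96.5 and 108 CPM in DTY-IL drought panicles, against 18.9, 20.8, 24.7 and 18.4 CPM in DTY-IL control panicles. In Swarna it had 175, 141, 162 and 141 CPM under drought, against 15.4, 13.7 and 17.2 CPM under control. The lowest drought library was well above the highest control library in each genotype. TOC1 rose 5.34-fold in DTY-IL (log2 fold change 2.42 ± 0.15 SE, adjusted p = 7.74e-07) and 10.03-fold in Swarna (3.33 ± 0.18 SE, adjusted p = 1.27e-07) by the same test. Only 7 genes had a smaller p-value in DTY-IL and only 4 in Swarna.

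PRR59, a daytime regulator of the same family, had 71.4, 75.7, 86.0 and 92.8 CPM in DTY-IL drought panicles, against 31.6, 32.7, 34.8 and 28.7 CPM in DTY-IL control panicles. In Swarna it had 115, 141, 143 and 127 CPM under drought, against 23.3, 26.1 and 27.3 CPM under control. The drought libraries of both genotypes were above all control libraries, and those of Swarna above those of DTY-IL. The log2 fold change was 1.35 ± 0.12 in DTY-IL (adjusted p = 1.17e-05) and 2.36 ± 0.14 in Swarna (SE, adjusted p = 2.96e-07) in edgeR's test.

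PRR95, another daytime regulator, had 455, 313, 414 and 458 CPM in DTY-IL drought panicles, against 138, 167, 176 and 154 CPM in DTY-IL control panicles. In Swarna it had 564, 520.5, 468 and 592 CPM under drought, against 116, 103 and 140.0 CPM under control. No drought library reached down to a control library. PRR95 rose by 1.37 ± 0.16 on the log2 scale in DTY-IL (adjusted p = 7.24e-05) and by 2.16 ± 0.18 in Swarna (SE, adjusted p = 2.4e-06) in edgeR's test. With the outlying Swarna control library put back, the adjusted p became 0.105 in DTY-IL and 0.251 in Swarna in edgeR's test. The log2 fold change became 1.35 in DTY-IL, whose own libraries were the same, and 0.83 in Swarna.

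PRR73 is the member of the family that, among those measured here, is known to act earliest in the day. It had 434, 319.6, 494 and 398 CPM in DTY-IL drought panicles, against 476, 419.6, 326 and 371 CPM in DTY-IL control panicles. These libraries were interleaved, with a log2 fold change of 0.05 ± 0.17 (SE, adjusted p = 0.86, edgeR's quasi-likelihood test). In Swarna PRR73 had 429, 453, 487 and 586 CPM under drought, against 344, 358 and 392 CPM under control. The groups did not overlap there, but the log2 fold change of 0.42 ± 0.18 (SE) did not pass in edgeR's test (adjusted p = 0.0746). It passed with DESeq2 (adjusted p = 0.0335) and in edgeR's test without DTY-IL control replicate 1 (adjusted p = 0.0392), a library that enters this contrast only through the shared estimate of spread and the scaling.

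GI, a large scaffold protein of the evening that links the clock to flowering, was at 1344, 1351, 1592 and 1309.9 CPM in DTY-IL drought panicles, against 702, 889.7, 638 and 606 CPM in DTY-IL control panicles. In Swarna it was at 1474, 1363, 1373 and 1767 CPM under drought, against 486, 451 and 616 CPM under control. The drought libraries of the genotypes overlapped, and all were above the control libraries. GI rose 1.97-fold in DTY-IL (log2 fold change 0.98 ± 0.17 SE, adjusted p = 0.0011) and 2.89-fold in Swarna (1.53 ± 0.19 SE, adjusted p = 3.98e-05) in edgeR's test. With the outlying library put back, the adjusted p became 0.175 in DTY-IL and 0.464 in Swarna in edgeR's test. The log2 fold change became 0.96 in DTY-IL, whose own libraries were the same, and 0.48 in Swarna.

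FKF1, a blue-light receptor with an F-box that in Arabidopsis works with GI to remove repressors of flowering, had 217, 122, 142 and 171 CPM in DTY-IL drought panicles, against 29.4, 28.1, 27.2 and 24.7 CPM in DTY-IL control panicles. In Swarna it had 311, 329, 289 and 317 CPM under drought, against 25.4, 25.9 and 31.7 CPM under control. The control libraries of the genotypes overlapped, and the drought panicles of Swarna were all above those of DTY-IL. FKF1 rose 5.96-fold in DTY-IL (log2 fold change 2.57 ± 0.17 SE, adjusted p = 1.11e-06) and 11.3-fold in Swarna (3.49 ± 0.20 SE, adjusted p = 2.13e-07) in edgeR's test.

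LUX, the DNA-binding member of the evening complex, had the largest fold changes of the 10 genes in both genotypes and the lowest counts. It had 11.1, 26.3, 8.75 and 12.5 CPM in DTY-IL drought panicles, against 0.76, 0.72, 1.02 and 0.73 CPM in DTY-IL control panicles, where each library held 18 to 30 counts. In Swarna it had 58.5, 19.9, 42.6 and 14.7 CPM under drought, against 1.06, 1.49 and 1.11 CPM under control, where each library held 29 to 43 counts. The drought libraries spread widely, with a coefficient of variation of 53.9% in DTY-IL and 60.0% in Swarna, but the lowest of them was well above the highest control library. The log2 fold change was 4.17 ± 0.47 in DTY-IL (adjusted p = 5.94e-05) and 4.79 ± 0.54 in Swarna (SE, adjusted p = 1.75e-05) in edgeR's test.

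The ELF3 genes code for the scaffold of the evening complex. ELF3-2 passed in both genotypes and ELF3-1 in neither, and the difference between them was not tested. ELF3-1 had 52.9, 44.8, 59.7 and 54.0 CPM in DTY-IL drought panicles, against 42.4, 53.8, 40.9 and 44.9 CPM in DTY-IL control panicles, and in Swarna 55.0, 55.2, 45.2 and 61.9 CPM under drought, against 48.9, 38.6 and 46.3 CPM under control. The groups overlapped in each genotype, with log2 fold changes of 0.22 ± 0.14 (adjusted p = 0.233) and 0.28 ± 0.15 (SE, adjusted p = 0.131) in edgeR's test. ELF3-2 had 49.8, 47.6, 61.8 and 61.3 CPM in DTY-IL drought panicles, against 37.0, 46.0, 19.7 and 28.7 CPM in DTY-IL control panicles, and in Swarna 66.0, 56.9, 80.4 and 66.5 CPM under drought, against 37.7, 35.1 and 43.4 CPM under control. Its drought and control libraries did not overlap, and it rose by 0.75 ± 0.21 in DTY-IL (adjusted p = 0.0156) and by 0.80 ± 0.23 in Swarna (SE, adjusted p = 0.0117) on the log2 scale in edgeR's test. These calls were near the threshold. The adjusted p in edgeR's test was 0.0626 for DTY-IL with only its own groups in the fit. It was 0.223 for DTY-IL with the outlying library put back (log2 fold change 0.73), and 0.0501 for Swarna without Swarna control replicate 2.

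**Figure D2:**
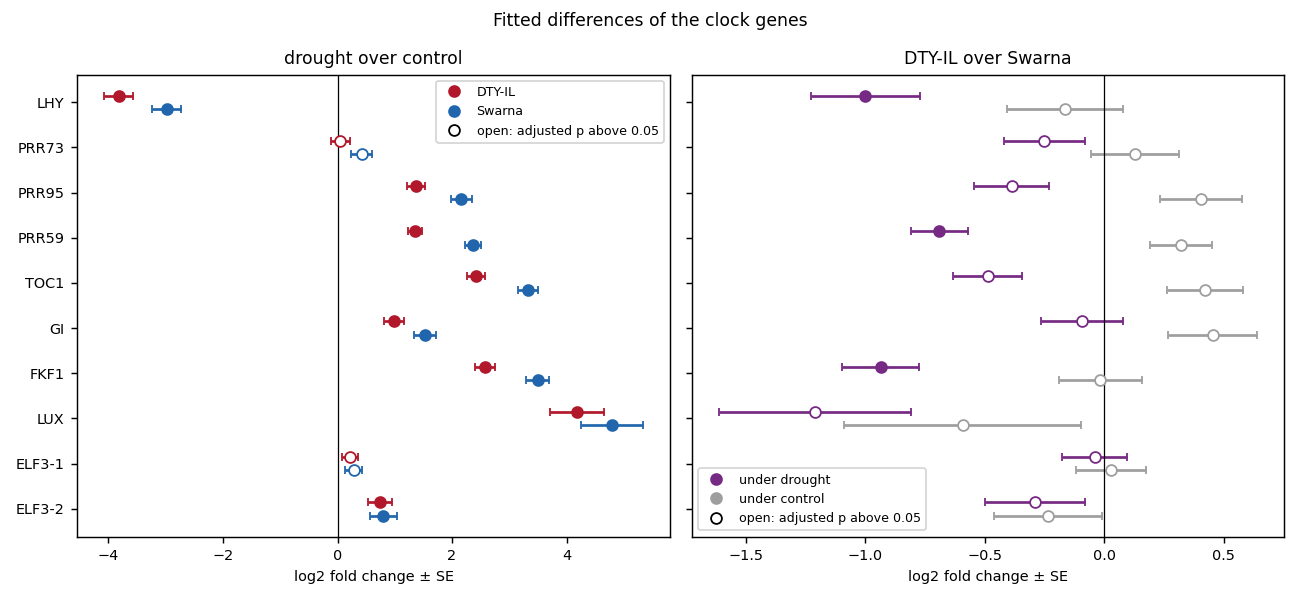
Fitted log2 fold changes with their standard errors, drought over control in each genotype (left) and DTY-IL over Swarna in each treatment (right); filled points passed an adjusted p of 0.05 and open points did not. LHY stands alone on the negative side at left, LUX is farthest to the right there, and at right the filled points under drought are LHY, PRR59 and FKF1.

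Ratios between genes of the same library do not depend on the scaling of that library. The log2 ratio of LHY to TOC1 counts was -2.36 ± 0.73 in DTY-IL drought and 3.94 ± 0.17 in DTY-IL control, and -1.83 ± 0.52 in Swarna drought and 4.52 ± 0.18 in Swarna control (SD, n = 4, 4, 4 and 3). The highest drought library of all was at -1.24 and the lowest control library at 3.69. The log2 ratio of LHY to GI was -6.03 ± 0.47 in DTY-IL drought and -1.15 ± 0.22 in DTY-IL control, and -5.09 ± 0.32 in Swarna drought and -0.54 ± 0.26 in Swarna control. In both ratios the drought and control libraries were widely apart. The log2 ratio of ELF3-1 to ELF3-2 was -0.06 ± 0.11 in DTY-IL drought and 0.53 ± 0.40 in DTY-IL control, and -0.31 ± 0.36 in Swarna drought and 0.20 ± 0.15 in Swarna control, so that all 7 control libraries were above 0 and 1 of the 8 drought libraries was. These ratios are given as values with no test.

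**Figure D3:**
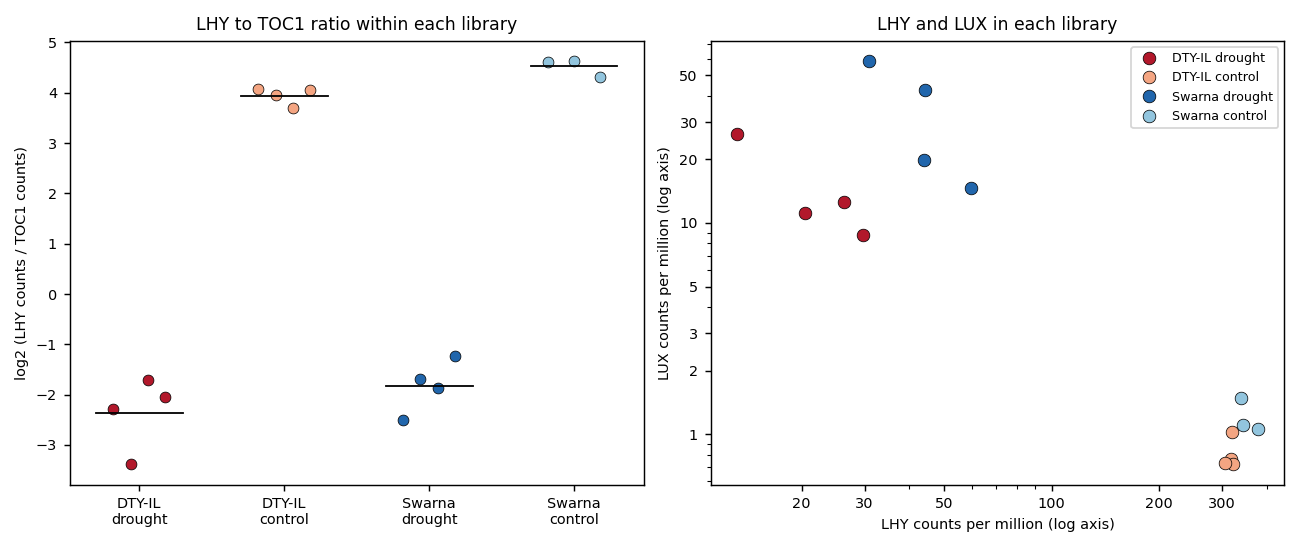
Left, log2 ratio of LHY to TOC1 counts in each library (points) with the group mean (line), where drought libraries lie at -3.39 to -1.24 and control libraries at 3.69 to 4.63. Right, LHY against LUX in each library, CPM on log axes, where within each drought group the library with the least LHY has the most LUX.

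Between the genotypes under drought, 3 of the 10 genes passed an adjusted p of 0.05, all lower in DTY-IL, while 5% of all genes passed and 2.16% did so with lower levels in DTY-IL. They were FKF1, at 163 ± 41.2 CPM in DTY-IL and 312 ± 16.8 CPM in Swarna, PRR59, at 81.5 ± 9.72 CPM in DTY-IL and 131 ± 13.2 CPM in Swarna, and LHY, at 22.3 ± 7.21 CPM in DTY-IL and 44.7 ± 11.8 CPM in Swarna (SD, n = 4 each). The log2 fold changes were -0.94 ± 0.16 for FKF1 (adjusted p = 0.00394), -0.69 ± 0.12 for PRR59 (adjusted p = 0.00422) and -1.0 ± 0.23 for LHY (SE, adjusted p = 0.0213) in edgeR's test. The drought libraries of DTY-IL and Swarna did not overlap for 5 clock genes (13.3% of all genes), these 3 with PRR95 and TOC1, and for LHY the gap was narrow, from 29.6 CPM in the highest DTY-IL library to 30.9 CPM in the lowest Swarna library. Of these 3 calls, that of LHY was lost in the most alternatives. Its adjusted p was 0.0644 when DTY-IL drought replicate 1 was left out, 0.0547 and 0.064 when replicate 3 or 4 of Swarna drought was, and 0.0893 with only the drought groups in the fit.

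The other clock genes did not pass between the genotypes under drought in edgeR's test, although all 10 fitted log2 fold changes were below 0, as were 50.2% of those of all genes. The median over the 10 was -0.44, against 0.00 over all genes. TOC1 came closest, with 110 ± 18.7 CPM in DTY-IL and 155 ± 16.7 CPM in Swarna (SD, n = 4 each, log2 fold change -0.49 ± 0.14 SE, adjusted p = 0.0669). It passed with DESeq2 (adjusted p = 0.0235) and in edgeR's test without DTY-IL drought replicate 2 (0.025) or DTY-IL control replicate 3 (0.0452). LUX had the largest log2 fold change, -1.21 ± 0.40 (SE, adjusted p = 0.0982), and overlapping libraries, and it passed when DTY-IL drought replicate 2 (adjusted p = 0.0353) or Swarna drought replicate 4 (0.0484) was left out. PRR95 had a log2 fold change of -0.39 ± 0.16 (SE, adjusted p = 0.17). GI and ELF3-1 had values near 0, at -0.09 ± 0.17 and -0.04 ± 0.14 (SE). None of the 10 genes both passed and reached an absolute log2 fold change of 1, against 3.36% of all genes. FKF1 at -0.94 and LHY at -1.0 lay just inside, while with DESeq2 1 gene did both. With the outlying library put back, none of the 10 passed in edgeR's test (1.41% of all genes). The adjusted p-values were 0.251 for FKF1, 0.395 for PRR59 and 0.37 for LHY. Their log2 fold changes in that fit were -0.94, -0.69 and -1.0.

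Between the genotypes under control, none of the 10 genes passed in edgeR's quasi-likelihood test or with DESeq2, against 1.2% of all genes in edgeR's test and 2.69% with DESeq2. At an unadjusted p under 0.05 there were 4 clock genes, PRR95, PRR59, TOC1 and GI, against 11% of all genes. All 4 had fitted values higher in DTY-IL, with log2 fold changes from 0.32 to 0.45 and adjusted p-values from 0.329 to 0.398 in edgeR's test. LHY had 316 ± 7.19 CPM in DTY-IL and 354 ± 21.7 CPM in Swarna (SD, n = 4 and 3, adjusted p = 0.855 in edgeR's test). FKF1, which differed under drought, had 27.4 ± 1.96 CPM in DTY-IL and 27.7 ± 3.55 CPM in Swarna under control (SD, n = 4 and 3). Control libraries of the genotypes did not overlap for 4 clock genes, LHY, PRR59, TOC1 and LUX, against 12.9% of all genes.

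The interaction sets the drought effect of DTY-IL against that of Swarna. None of the 10 genes passed in edgeR's test, in which 0.0594% of all genes did, while 6 had an unadjusted p under 0.05 (12.3% of all genes) and 4 passed with DESeq2 (2.06% of all genes). The largest effect was that of PRR59, with an interaction of -1.01 ± 0.18 on the log2 scale (SE, adjusted p = 0.0559 in edgeR's quasi-likelihood test), and only 27 genes had a smaller p-value. PRR59 passed with the filterByExpr filter (adjusted p = 0.0468) and with DESeq2 (adjusted p = 1.01e-05). The others that passed with DESeq2 were TOC1 (-0.91 ± 0.21 SE, adjusted p = 0.145 in edgeR's test and 0.0107 with DESeq2), FKF1 (-0.92 ± 0.24 SE, 0.169 and 0.011) and PRR95 (-0.79 ± 0.23 SE, 0.217 and 0.0235). For these genes a negative value stands for a smaller rise in DTY-IL. For LHY, at -0.84 ± 0.33 (SE, adjusted p = 0.336 in edgeR's test), it stands for a larger fall in DTY-IL. All 10 fitted interactions were below 0, as were 52% of those of all genes, and this contrast shares its drought libraries with the one between the genotypes under drought. With the outlying library put back, the fitted interaction of 5 genes, LHY, PRR73, PRR95, GI and ELF3-1, was above 0.

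Within the groups, some clock genes varied together from library to library. In DTY-IL drought, replicate 2 had the least LHY (13.2 CPM) with the most LUX (26.3 CPM) and the most TOC1 (138 CPM), and replicate 3 had the most LHY (29.6 CPM) with the least LUX (8.75 CPM) and the least TOC1 (96.5 CPM). In Swarna drought, replicate 1 had the least LHY (30.9 CPM) with the most LUX (58.5 CPM) and the most TOC1 (175 CPM), and replicate 4 had the most LHY (59.7 CPM) with the least LUX (14.7 CPM) and the least TOC1 (141 CPM). The same libraries held the extremes of all 3 genes in each drought group, though replicates 2 and 4 of Swarna drought were level in TOC1 (141 CPM each). Over the 15 libraries, Pearson's r between the deviations of LHY and LUX from their group means in log2 CPM was -0.84 (Spearman's rho -0.60), and without the 2 libraries farthest in LHY it was -0.63. For TOC1 and LUX r was 0.72 (rho 0.65), and 0.60 without the 2 libraries farthest in TOC1. For LHY and TOC1 it was -0.63 (rho -0.29), and -0.24 without the 2 libraries farthest in LHY.

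These relations rested on the drought libraries. Among the 8 drought libraries r was -0.86 for LHY and LUX, 0.93 for TOC1 and LUX, -0.86 for LHY and TOC1, and 0.89 for LHY and PRR73. Among the 7 control libraries the values were -0.33, 0.19, 0.28 and -0.12 in the same order, where LUX rests on 18 to 43 counts a library. Other pairs were closer across both treatments, such as GI and ELF3-1, with r of 0.70 among drought and 0.71 among control libraries. For LUX and ELF3-1 the values were -0.76 and -0.79. The within-group standard deviation on the log2 scale was largest for LUX (0.62), LHY (0.34) and ELF3-2 (0.32) and smallest for PRR59 (0.14). The points share library preparation and panicle composition, and these values are descriptions with no test.

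**Figure D4:**
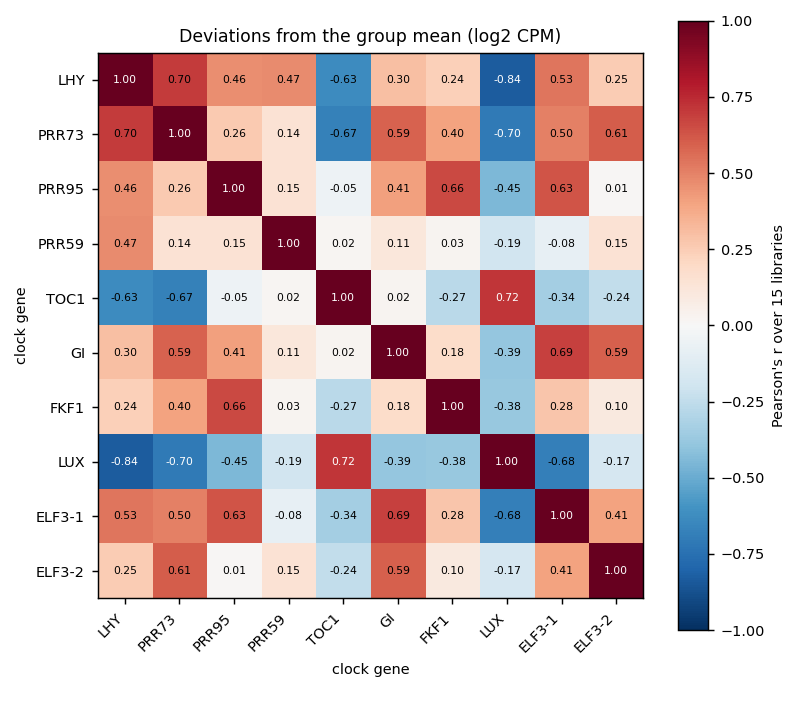
Pearson's r between clock genes, over 15 libraries, of their log2 CPM after the mean of each group was taken away (red positive, blue negative). LHY and LUX have the most negative value at -0.84, TOC1 and LUX the most positive at 0.72.

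Markers of green tissue moved with the treatment as well. Of the 9 measured loci listed, from general knowledge, for the small subunit of Rubisco, for light-harvesting proteins and the like, 5 fell and none rose in DTY-IL (median log2 fold change -1.90), and all 9 fell in Swarna (median -3.91). Summed, they ranged from 1169 to 11309 CPM in DTY-IL drought and from 12624 to 36978 CPM in DTY-IL control, and from 1837 to 4251 CPM in Swarna drought and from 21230 to 34301 CPM in Swarna control, with no locus at 0 in any of these libraries. The lowest sum, 1169 CPM, was in DTY-IL drought replicate 2, the library with the least LHY. Over the 15 libraries, deviations of the summed log2 level from the group means had r of 0.52 with LHY (rho 0.06), -0.69 with TOC1 (rho -0.60), -0.45 with LUX (rho -0.26) and 0.54 with FKF1 (rho 0.23). Without the 2 libraries farthest in the clock gene, r was 0.16 for LHY, -0.35 for TOC1, -0.22 for LUX and -0.28 for FKF1, so the values for LHY and FKF1 rested on those libraries. For FKF1 r was 0.81 among the 8 drought and -0.61 among the 7 control libraries, while for TOC1 it was -0.64 and -0.91. For PRR95 it was 0.91 and -0.68, and for PRR59 0.01 and -0.87. The listed floral organ loci went down in part, with 9 of 13 lower in DTY-IL and 11 of 13 lower in Swarna and none higher (medians -0.75 and -1.06). Of 7 anther and pollen loci, 1 was lower in DTY-IL and 3 in Swarna, and none was higher, beside 17% and 22.7% of all genes that were lower (medians -1.63 and -2.41). The part of these shifts in tissue markers in the clock results was not tested. Between the genotypes under drought none of the green, floral or anther loci passed in edgeR's test, but the median log2 fold change was 1.10 for the green, 0.04 for the floral and 1.05 for the anther loci, against 0.00 over all genes and -0.44 for the 10 clock genes. In the interaction, where none of these loci passed either, the medians were 1.54, 0.31 and 1.49, against -0.03 over all genes and -0.71 for the clock genes.

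Further loci around the clock were taken from lists written from general knowledge, and neither the files nor the reference table pair these identifiers with names. Of 16 other loci listed as clock genes or clock-like MYB genes, 1 rose and 8 fell in DTY-IL and 2 rose and 7 fell in Swarna, with median log2 fold changes of -0.33 and -0.17. Both medians were below 0, whereas those of the 10 genes were above it. Between the genotypes under drought, 2 of the 16 were lower in DTY-IL, against 2.16% of all genes. Of 15 measured loci listed for light receptors and light signalling, 1 rose and 4 fell in DTY-IL and 1 rose and 5 fell in Swarna (medians 0.03 and -0.32). Over all genes 16% rose and 17% fell in DTY-IL and 21.6% rose and 22.7% fell in Swarna, so the counts of this list were not far from the background. The largest change of that list was in LOC_Os03g56950, which ranged from 6.89 to 9.59 CPM in DTY-IL drought, against 39.3 to 117 CPM in DTY-IL control, and from 3.33 to 6.54 CPM in Swarna drought, against 96.6 to 120.0 CPM in Swarna control. It fell by 3.38 and 4.56 on the log2 scale (adjusted p = 8.2e-06 and 7.91e-07 in edgeR's test).

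Genes that read out day length for flowering lie downstream of GI and FKF1. Of 6 loci listed for them, 4 passed the filter. In DTY-IL 1 of these rose and 2 fell, and in Swarna 1 rose and 3 fell, with median log2 fold changes of -1.59 and -2.67. Over all genes 16% rose and 17% fell in DTY-IL and 21.6% rose and 22.7% fell in Swarna, with medians of -0.03 and 0.00. LOC_Os06g06320 ranged from 2.82 to 8.60 CPM in DTY-IL drought, against 0.14 to 26.1 CPM in DTY-IL control, and from 0.27 to 3.46 CPM in Swarna drought, against 17.3 to 23.4 CPM in Swarna control. It fell by 3.6 on the log2 scale in Swarna (adjusted p = 0.00987), and its value in DTY-IL, where the groups overlapped, was -1.53 (adjusted p = 0.2) in edgeR's test. The other 2 that fell had at most 1.01 CPM in any library used. They were the only ones that passed as lower in DTY-IL, so the counts and medians rest in part on very low levels. The one that rose, LOC_Os06g16370, ranged from 1.03 to 4.58 CPM in DTY-IL drought, against 0.52 to 0.82 CPM in DTY-IL control, and from 2.94 to 5.96 CPM in Swarna drought, against 0.48 to 0.93 CPM in Swarna control. Its log2 fold changes were 1.94 (adjusted p = 0.00349) and 2.42 (adjusted p = 0.000876) in edgeR's test, at a low level throughout.

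The genes whose level most resembled that of a clock gene over the 15 libraries were sought among 20921 genes with a mean of at least 50 counts. For TOC1 the nearest was LOC_Os02g26300, with a Pearson's r of 0.99 in log2 CPM and log2 fold changes of 0.96 in DTY-IL and 1.35 in Swarna. The others of its 3 nearest also had an r of 0.99. Their log2 fold changes were larger, at 5.14 and 4.68 in DTY-IL and 5.84 and 5.83 in Swarna. The 3 nearest genes of LHY and of GI had an r of 0.98 to 0.99. The libraries share their treatment groups, so these values are given as a description.

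Since DTY-IL carries N22 segments, the 20 tested loci nearest to each clock gene by locus number were looked at for differences between the genotypes. Around FKF1, 2 of 20 neighbours passed under control and 6 of 20 under drought in edgeR's test. Around ELF3-2 the counts were 3 and 5, and around LUX 0 and 4. The neighbours of LHY, TOC1, GI and ELF3-1 had none in either treatment, and those of PRR73, PRR95 and PRR59 had none under control and 1 each under drought. Over all genes 1.2% passed under control and 5% under drought, which are the shares to set beside these counts. The study mapped the N22 segments by SNPs. Its text names segments on the chromosomes of GI, LUX and ELF3-2 (1), PRR73 (3), LHY (8) and PRR95 (9), among others. It names none on those of TOC1 (2), ELF3-1 (6), or PRR59 and FKF1 (11). Whether a clock gene lies within such a segment was not tested here.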

How the data were processed

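Panicle RNA was sequenced in read pairs. The authors estimated transcript abundance with Salmon 0.7.2 against transcripts of the japonica genome with RGAP release 7 gene models, correcting for sequence and GC bias, and tximport gave values per gene. The deposited values are these estimated counts, not normalized, and they were used as whole numbers. The submitters' processing notes also name Trimmomatic, Cufflinks 2.2.1 and DESeq2 1.14.1. Reads of both genotypes were set against one japonica reference, and the effect of this on genotype differences was not tested. The deposited DESeq2 tables hold the authors' own fold changes and p-values and were not used.

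The fits used edgeR 4.0.16 in R 4.3.3. A gene needed at least 10 counts over the 15 libraries used. All 4 groups were fitted together with TMM factors, and the quasi-likelihood test was adjusted in each contrast (Benjamini-Hochberg) across the 33698 genes. Genes were called at an adjusted p of at most 0.05. Standard errors were the absolute log2 fold change over the root of the test's F value. The fit was tested on simulated data. P-values weigh a difference between groups against the spread between libraries. Count columns name a group and a number from 1 to 4 that is not the pot number of the samples, so columns were assigned to groups, and replicate numbers are those of the columns.

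Alternatives were RLE factors, no filter, filterByExpr, DESeq2 1.42.0, all 16 libraries, only the groups compared, and leaving out each library. The 10 genes and the other lists were chosen with earlier results of these data known. The rule named the 10 members, the 4 called loci of each other list with the largest drought fold changes, and the 3 genes nearest in level to each of LHY, TOC1 and GI. As loci outside the 10 carry no name in the files or the reference table, only 2 that rose and 2 that fell are printed. They come from the light and photoperiod lists and from the genes nearest to TOC1. None is from the list of other clock genes, although some of those loci were called. Figures were drawn with matplotlib 3.10.9.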

Additional observations from a re-analysis of the deposited data

Results flagged for a closer look

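Among the groups of 4 libraries, 39 sets of values were looked at for a library far from the other 3, and 3 had one, where chance gives about 1 in 20. GI was at 1592 CPM in DTY-IL drought replicate 3, above 1309.9 to 1351 CPM in the other 3 libraries. LUX was at 1.02 CPM in DTY-IL control replicate 3, from 30 counts, above 0.72 to 0.76 CPM in the other 3. The log2 ratio of LHY to GI was -5.58 in Swarna drought replicate 1, below -4.96 to -4.89 in the other 3, and this is the Swarna drought library with the least LHY.

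The library labelled Swarna control replicate 3, which was left out of the fits other than those said to have it put back, held levels of 7 clock genes above those of the other Swarna control libraries when scaled with all 16 libraries together. LHY was at 1441 CPM (339 to 379 in the others), PRR73 at 1487 (344 to 392), PRR95 at 806 (103 to 140.0), PRR59 at 77.3 (23.3 to 27.3), TOC1 at 30.1 (13.7 to 17.2), GI at 2610 (451 to 616) and ELF3-1 at 214 (38.6 to 48.9). Without the TMM factor TOC1 was within the range of the others, at 16.5 CPM against 12.7 to 17.6, and the other 6 remained above. FKF1, LUX and ELF3-2 were below the others, at 6.48, 1.01 and 6.92 CPM.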

How the results depend on the processing

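The drought log2 fold changes of LHY, PRR59, TOC1, FKF1 and LUX kept their direction and stayed past the threshold in both genotypes under every alternative run. With all 16 libraries 5 clock genes passed in DTY-IL and 0 between the genotypes under drought, and signs turned for PRR73 (-0.44) and ELF3-1 (-0.73) in the Swarna drought contrast, for PRR73 (-0.72), PRR95 (-0.91), PRR59 (-0.29), GI (-0.58), FKF1 (0.29), ELF3-1 (-0.96) and ELF3-2 (0.0919) between the genotypes under control, and for LHY (0.00919), PRR73 (0.47), PRR95 (0.52), GI (0.49) and ELF3-1 (0.92) in the interaction. This alternative differs from the main fit only by the outlying library, whose clock gene levels are given above. Why that library stands apart was not tested. Between the genotypes under drought 1 gene passed with a log2 fold change beyond 1 with RLE factors and 1 with DESeq2. In the interaction 1 gene passed with filterByExpr, also with that fold change, and 4 passed with DESeq2, 1 with that fold change. ELF3-1 between the genotypes under control turned to -0.00231 without the filter and to -0.0015 with only the groups compared.

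Leaving out 1 library at a time gave 8 clock genes called in DTY-IL each time, 7 to 9 in Swarna, 2 to 5 between the genotypes under drought (5 without DTY-IL drought replicate 2), 0 to 1 of these with the fold change, and 0 in the interaction. For these runs, and for those with RLE factors or filterByExpr, the share of all genes that passed was not worked out. A change in these counts therefore cannot be set against the background. Genes near 0 changed sign in these runs. PRR73 ranged from -0.0551 to 0.19 in DTY-IL, ELF3-1 from -0.12 to 0.0438 between the genotypes under drought, FKF1 from -0.0748 to 0.0547 and ELF3-1 from -0.0652 to 0.10 under control, and ELF3-1 from -0.15 to 0.0452 and ELF3-2 from -0.24 to 0.15 in the interaction.

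No paired analysis was possible because the count columns carry no pot number.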
